A study of Homo sapiens with 3 samples.

Results

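The miR-17-92 polycistron is a run of 6 miRNA hairpins, hsa-mir-17 (gene MIR17), hsa-mir-18a (MIR18A), hsa-mir-19a (MIR19A), hsa-mir-20a (MIR20A), hsa-mir-19b-1 (MIR19B1) and hsa-mir-92a-1 (MIR92A1), that lie one after another in a single primary transcript, MIR17HG, on chromosome 13. The members were taken by their exact names in the sense annotation of deposited DICER PAR-CLIP clusters, and they are 6 of the 396 miRNA hairpins named in any of the lists. All 6 had a cluster in each of the 3 replicates and in the list that covers the series. Of all the hairpins named, 160 had a cluster in all 3 replicates, which is 40.4%. Of the miRNA genes in RefSeq, 8.26% did. Clusters on the members numbered 6 of 11577 in replicate 1, 8 of 18065 in replicate 2, 8 of 5099 in replicate 3 and 6 of 8469 in the series-wide list.

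The samples were 3 replicates of 1 group. All came from HEK293, an established human embryonic kidney line, in its Flp-In T-Rex form carrying FLAG:DICER, and their titles give T1, the name of an RNase used to trim RNA in PAR-CLIP. In PAR-CLIP, a photoreactive uridine analogue is built into cellular RNA, ultraviolet light links the RNA to the tagged protein, and the linked uridines are read as T-to-C conversions. No untagged control and no measured precursor level entered the comparisons, so how often DICER was bound and how much of a precursor was present cannot be told apart. Whether each replicate was a culture of its own is not stated in the labels, and the spread and p-values may then be technical.

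The 6 hairpins are cut from 1 transcript in the nucleus by DROSHA with DGCR8, and the freed precursors are carried to the cytoplasm, where DICER removes the loop and leaves a short duplex. One strand of that duplex is loaded into an Argonaute protein and pairs with mRNAs, mostly through its seed, bases 2 to 8 from the 5′ end. The polycistron is driven by MYC and E2F factors, is often amplified or overexpressed in lymphomas and other tumours, and promotes proliferation and survival.

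The hairpins are shown first because the clusters described below span them. All 6 were matched in RefSeq (GRCh38.p14), and the sequences run 5′ to 3′ with both mature arms in capitals and the flanks and the loop between the arms in lower case.
hsa-mir-17: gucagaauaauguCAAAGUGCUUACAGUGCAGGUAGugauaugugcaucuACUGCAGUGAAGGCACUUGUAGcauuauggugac
hsa-mir-18a: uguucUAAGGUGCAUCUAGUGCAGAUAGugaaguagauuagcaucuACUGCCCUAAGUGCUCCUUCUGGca
hsa-mir-19a: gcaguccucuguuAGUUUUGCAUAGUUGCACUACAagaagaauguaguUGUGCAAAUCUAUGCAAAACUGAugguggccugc
hsa-mir-20a: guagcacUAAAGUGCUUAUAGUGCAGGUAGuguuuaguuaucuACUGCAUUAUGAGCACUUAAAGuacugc
hsa-mir-19b-1: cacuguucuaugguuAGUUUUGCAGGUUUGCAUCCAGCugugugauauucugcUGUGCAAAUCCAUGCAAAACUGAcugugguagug
hsa-mir-92a-1: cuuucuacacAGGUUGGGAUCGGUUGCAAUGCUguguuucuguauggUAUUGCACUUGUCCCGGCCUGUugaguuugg

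The arm usually loaded from each hairpin places the 6 in 4 seed families. The sequences below carry the seed in capitals.
hsa-miR-17-5p: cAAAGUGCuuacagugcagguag
hsa-miR-20a-5p: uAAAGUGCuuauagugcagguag
hsa-miR-18a-5p: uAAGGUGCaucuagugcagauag
hsa-miR-19a-3p: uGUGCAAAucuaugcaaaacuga
hsa-miR-19b-3p: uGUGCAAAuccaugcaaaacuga
hsa-miR-92a-3p: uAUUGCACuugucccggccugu

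hsa-miR-17-5p and hsa-miR-20a-5p share the seed AAAGUGC and 21 of 23 bases, and the differences are C1U and C12U, counted from the 5′ end with the base of hsa-miR-17-5p first. hsa-miR-19a-3p and hsa-miR-19b-3p share the seed GUGCAAA and 22 of 23 bases, with the difference U11C, the base of hsa-miR-19a-3p first. hsa-miR-20a-5p holds 7 uridines against 5 in hsa-miR-17-5p and 8 in hsa-miR-92a-3p, and uridines are the bases that PAR-CLIP reads. The part of uridine content in the values below was not tested. hsa-miR-19b-3p and hsa-miR-92a-3p are each also encoded, base for base, by 1 other locus, MIR19B2 and MIR92A2. The sources used here do not state how reads lying wholly within a shared arm were placed. The values of hsa-mir-19b-1 and hsa-mir-92a-1, and of those other loci, are uncertain to that extent.

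The lists behind the values held 1306125, 1060791 and 595487 conversions in replicates 1, 2 and 3. On miRNA hairpins they held 208066, 131427 and 82044 conversions from 9736, 8768 and 2486 distinct reads. The counts by the authors are not scaled to depth, so hairpins were compared within a replicate or as shares of the conversions on all hairpins of the same list. Reads of the hairpin clusters were repeated 23.7, 16.1 and 34.6 times per distinct read in the 3 replicates. Conversions may therefore exceed the number of separate molecules, and distinct reads are given beside them. Distinct reads may in turn fall below that number, because separate molecules that give identical reads would count as 1. As a check on the cell line, 5 of 26 hairpins typical of muscle, liver, brain, blood or pluripotent stem cells had a cluster in any replicate, and 1 of 26, hsa-mir-128-1, in all 3. The 26 together had 246, 58 and 3 conversions in replicates 1, 2 and 3, fewer than the lowest member of the polycistron in each replicate. In replicate 1 the blood hairpins hsa-mir-142 and hsa-mir-144 had 125 and 62 of these. The brain hairpin hsa-mir-9-2, left out of the 26, had 15 conversions in replicate 1. No marker of HEK293 itself was in the check.

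hsa-mir-20a carried nearly all conversions of the polycistron. Its conversions were 72507, 17972 and 6817 in replicates 1, 2 and 3, against 5417, 1550 and 655 on the other 5 hairpins together. It was thus far above every other member in every replicate. Its share of the polycistron was 93.0%, 92.1% and 91.2%, a mean of 92.1% ± 0.908 (SD, n = 3). Of the conversions of the polycistron, hsa-mir-92a-1 held 0.876%, 3.53% and 4.70%, and hsa-mir-17 held 3.47%, 2.37% and 1.58%. Of all hairpin conversions hsa-mir-20a held 34.8%, 13.7% and 8.31%, or 18.9% ± 14.0 on average (SD, n = 3), and 11.0% if replicate 1 is left out. Of the hairpins with a cluster it ranked 1 of 313, 2 of 298 and 2 of 192 by conversions, behind hsa-mir-221 in replicates 2 and 3.

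By distinct reads hsa-mir-20a led the polycistron too, but by much less. It had 547, 372 and 101 distinct reads in replicates 1, 2 and 3, which was 58.1%, 63.3% and 60.8% of those on the polycistron (mean 60.7% ± 2.57, SD, n = 3). The other 5 hairpins together had 394, 216 and 65. Among all hairpins with a cluster, hsa-mir-20a ranked 2, 3 and 4 by distinct reads. The paralog hsa-mir-106b was above it in each replicate, with 560, 586 and 144. hsa-mir-93 was above it in replicates 2 and 3, with 550 and 195, and hsa-mir-221 in replicate 3, with 137. Each distinct read of hsa-mir-20a stood for 133, 48.3 and 67.5 conversions, against a median over all hairpins of 6, 3 and 9. By this quantity hsa-mir-20a ranked 1, 3 and 3 among hairpins, with hsa-mir-221 and hsa-mir-103a-2 ahead of it in replicates 2 and 3. The number of positions with a conversion was 22, 22 and 16, the highest of all hairpins in replicates 1 and 2 and level with hsa-mir-221 in replicate 3. The stretch from the first base of the 5′ arm to the last base of the 3′ arm of hsa-mir-20a holds 21 uridines, and its clusters ran 61, 61 and 59 nt against 58 nt for that stretch.

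**Figure D1:**
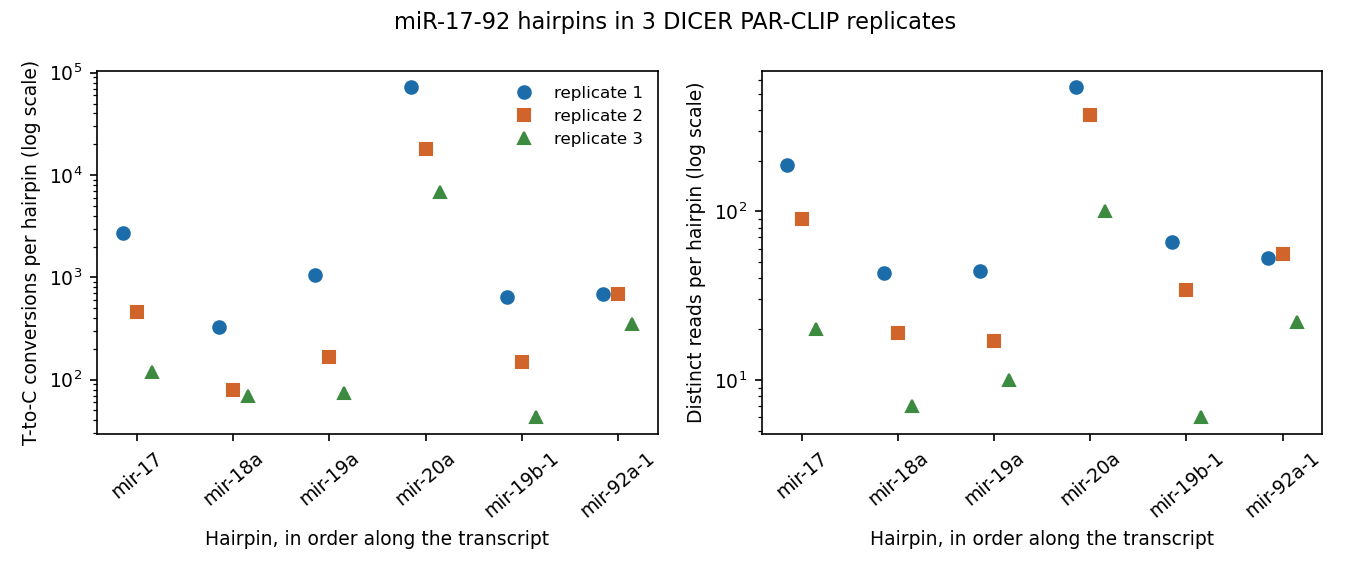
T-to-C conversions (left) and distinct reads (right) of the 6 hairpins, both on log axes, with 1 point per replicate and hairpins in transcript order. hsa-mir-20a is the highest point of each replicate in both panels, at 72507, 17972 and 6817 conversions and 547, 372 and 101 distinct reads.

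hsa-mir-17, the first hairpin of the transcript, shares its seed with hsa-mir-20a but had far fewer conversions. The counts were 2707, 462 and 118 in replicates 1, 2 and 3. Replicate 1 was the highest, and the share of hairpin conversions ran 1.30%, 0.352% and 0.144% (mean 0.599% ± 0.617, SD, n = 3; 0.248% without replicate 1). The log2 share of hsa-mir-17 ranged over 3.18 between replicates, rank 21 of the 160 hairpins with a cluster in all 3, whose median range was 1.77. Its distinct reads were 188, 90 and 20. The log2 ratio of hsa-mir-17 to hsa-mir-20a was -4.74, -5.28 and -5.85 in conversions, a mean of -5.29 ± 0.555 (SD, n = 3), and in distinct reads the mean was -1.97 ± 0.403 (SD, n = 3). The difference had the same direction in 3 of 3 replicates and was several times the SD in both measures (exact two-sided sign-flip permutation p = 0.25, the smallest that 3 replicates allow; adjusted p = 0.281 for conversions and 0.45 for distinct reads over 9 such tests each).

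hsa-mir-18a, whose processing is known to be promoted by the RNA-binding protein HNRNPA1, was the lowest member by conversions in replicates 1 and 2, and by distinct reads in replicate 1. It had 326, 80 and 69 conversions in replicates 1, 2 and 3 and 43, 19 and 7 distinct reads. Its share of hairpin conversions was 0.157%, 0.0609% and 0.0841%, a mean of 0.101% ± 0.05 (SD, n = 3). Next to it on the transcript, hsa-mir-17 was higher by 3.05, 2.53 and 0.77 on the log2 scale of conversions, so the gap held its direction while its size differed between replicates (mean 2.12 ± 1.19, SD, n = 3; exact sign-flip permutation p = 0.25, adjusted p = 0.281). By distinct reads hsa-mir-17 was 4.37, 4.74 and 2.86 times as high as hsa-mir-18a.

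hsa-mir-19a and hsa-mir-19b-1, the pair with the seed GUGCAAA that is held to be the main oncogenic component of the polycistron in lymphoma models, had far fewer conversions than hsa-mir-20a. hsa-mir-19a had 1061, 168 and 74 conversions in replicates 1, 2 and 3 and 44, 17 and 10 distinct reads. hsa-mir-19b-1 had 640, 150 and 43 conversions and 66, 34 and 6 distinct reads. The mean log2 ratio of hsa-mir-19a to hsa-mir-19b-1 was 0.56 ± 0.343 in conversions, positive in 3 of 3 replicates, but -0.28 ± 0.907 in distinct reads, negative in 2 of 3 (SD, n = 3; exact sign-flip permutation p = 0.25 and 0.75, adjusted p = 0.281 and 0.75). The direction therefore depended on the measure. Both lay well below hsa-mir-20a, which stands between them on the transcript: hsa-mir-20a had 113, 120 and 159 times the conversions of hsa-mir-19b-1 (mean log2 ratio 7.01 ± 0.260, SD, n = 3; exact sign-flip permutation p = 0.25, adjusted p = 0.281). Against hsa-mir-19a the mean log2 ratio of hsa-mir-19a to hsa-mir-20a was -6.45 ± 0.329 (SD, n = 3; exact sign-flip permutation p = 0.25, adjusted p = 0.281). In distinct reads hsa-mir-20a was 8.29, 10.9 and 16.8 times as high as hsa-mir-19b-1. hsa-mir-18a lay below hsa-mir-19a by a mean log2 ratio of -0.96 ± 0.807 in conversions, but at -0.13 ± 0.348 in distinct reads, with 2 of 3 replicates negative (SD, n = 3; exact sign-flip permutation p = 0.25 and 0.75, adjusted p = 0.281 and 0.75). The first of these means was -0.59 without replicate 1.

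hsa-mir-92a-1, the last hairpin, had the smallest range of log2 share of the 6 members. It had 683, 690 and 351 conversions in replicates 1, 2 and 3 and 53, 56 and 22 distinct reads. Its share of hairpin conversions was 0.328%, 0.525% and 0.428%, a mean of 0.427% ± 0.0984 (SD, n = 3), and the range of its log2 share between replicates, 0.68, ranked 136 of 160 hairpins. The other 5 members had their highest share in replicate 1, and its place among them changed. By conversions, in replicate 1 it was below hsa-mir-20a, hsa-mir-17 and hsa-mir-19a, and in replicates 2 and 3 only hsa-mir-20a was above it. By distinct reads hsa-mir-20a, hsa-mir-17 and hsa-mir-19b-1 were above it in replicate 1, hsa-mir-20a and hsa-mir-17 in replicate 2, and hsa-mir-20a alone in replicate 3. The log2 ratio of hsa-mir-19b-1 to hsa-mir-92a-1 was -0.09, -2.20 and -3.03 in conversions (mean -1.77 ± 1.51, SD, n = 3; exact sign-flip permutation p = 0.25, adjusted p = 0.281), and with replicate 3 left out the mean was -1.15. In distinct reads it was 0.32, -0.72 and -1.87, so the direction was not the same in all replicates (mean -0.76 ± 1.10, SD, n = 3; exact sign-flip permutation p = 0.5, adjusted p = 0.643).

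Of the 15 pairs of members, 12 had the same direction in all 3 replicates by conversions and 10 by distinct reads. The 3 that changed by conversions were hsa-mir-17 with hsa-mir-92a-1, hsa-mir-19a with hsa-mir-92a-1, and hsa-mir-18a with hsa-mir-19b-1. The order of the members did not follow their order along the transcript. Conversions and distinct reads gave hsa-mir-20a the first place in all 3 replicates and in the series-wide list, where it had 84230 conversions and 620 distinct reads. There hsa-mir-17 was the second with 2929 and 194.

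**Figure D2:**
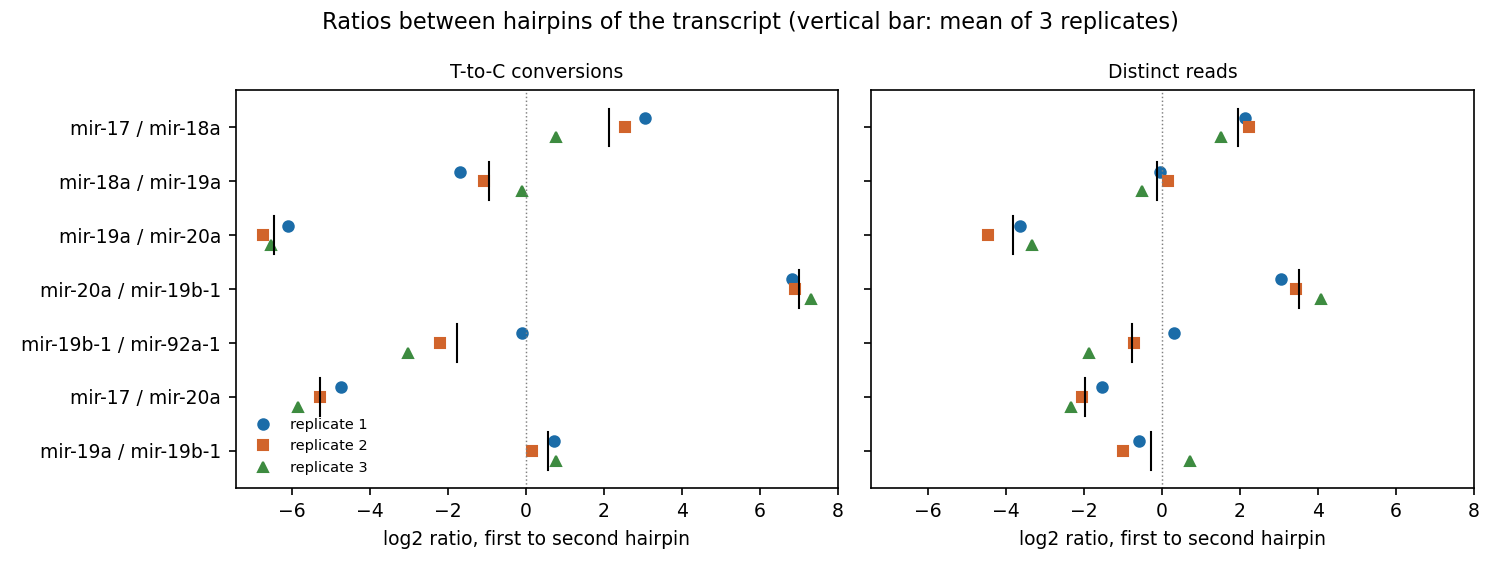
Log2 ratios of conversions (left) and of distinct reads (right) for the 5 neighbouring pairs and, in the bottom 2 lines, the 2 pairs with a common seed. Symbols are replicates and each vertical bar is the mean of 3; hsa-mir-20a to hsa-mir-19b-1 averages 7.01 in conversions and 3.53 in distinct reads, and hsa-mir-19a to hsa-mir-19b-1 lies on both sides of 0 in distinct reads.

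Clusters differed in whether the deposited count of edits equalled the count of reads. A tag in the deposited attributes, whose meaning the sources used here do not give, divides the clusters. Of those with the ending K1, 92.9%, 97.4% and 96.4% in replicates 1, 2 and 3 had equal counts, and of those with K0 none did. Of the member clusters, 2 of 6, 4 of 8 and 7 of 8 had K1 in replicates 1, 2 and 3, and of all hairpin clusters 47.5%, 51.6% and 80.6% did. hsa-mir-20a had K0 in all 3 replicates, hsa-mir-18a and hsa-mir-19a had K1 in all 3, and hsa-mir-17, hsa-mir-19b-1 and hsa-mir-92a-1 had K1 in replicate 3 alone. On hsa-mir-20a the counts of edits and reads thus differed, and its conversions were 95.3%, 96.8% and 98.0% of its reads. The part of this tag in the ratios was not tested.

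**Figure D3:**
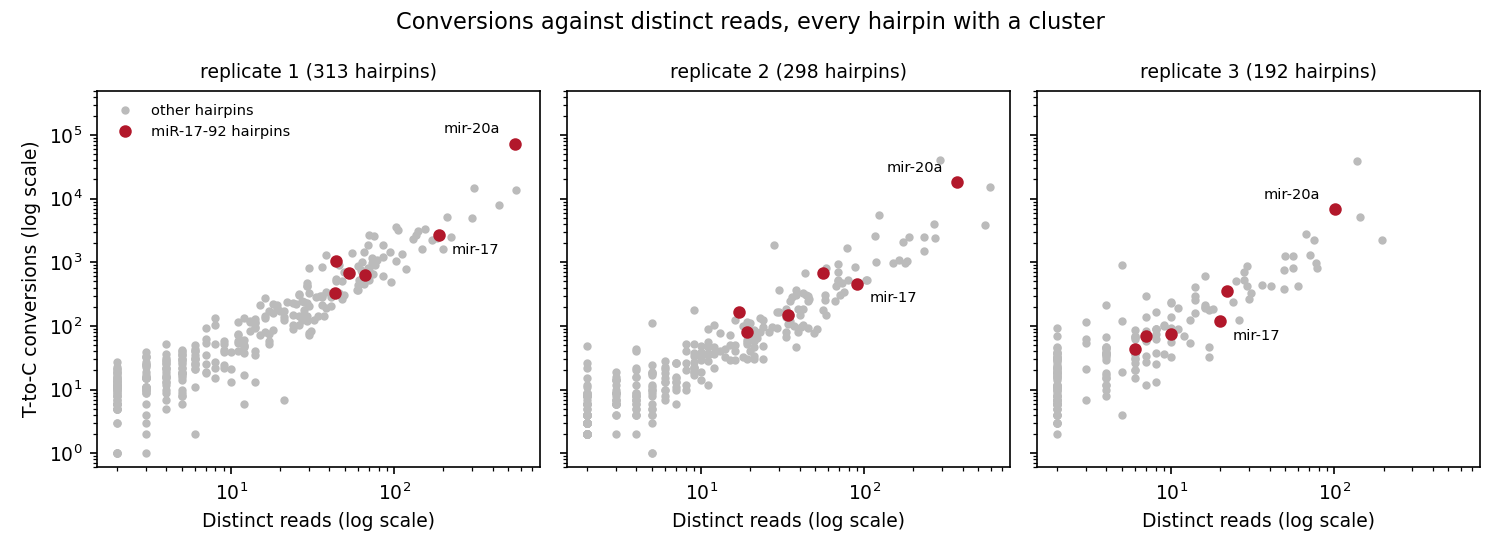
Conversions against distinct reads for each hairpin with a cluster, 1 panel per replicate, both axes log; red points are the 6 members and grey points the other hairpins. hsa-mir-20a is the highest point in replicate 1 and lies in the upper right in all 3 panels, while the other 5 members have 326 to 2707 conversions in replicate 1 and 43 to 351 in replicate 3.

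Clusters on the 6 hairpins lay on the plus strand of hg19 chromosome 13 between 92002871 and 92003638, a span of 768 nt in the series-wide list, and each was annotated to both exon 2 of the MIR17HG transcript NR_027350 and intron 3 of NR_027349. No other cluster named MIR17HG in any of the 4 lists, and no cluster lay on the opposite strand within the span. In the series-wide list the hsa-mir-17 cluster ran from 92002871 to 92002933, hsa-mir-18a from 92003010 to 92003074 and hsa-mir-19a from 92003158 to 92003216. The hsa-mir-20a cluster ran from 92003325 to 92003385, hsa-mir-19b-1 from 92003461 to 92003521 and hsa-mir-92a-1 from 92003577 to 92003638. These clusters are 59 to 65 nt long, which is within 4 nt of the stretch from the start of the 5′ arm to the end of the 3′ arm of each hairpin in RefSeq, 58 to 64 nt. Between neighbours lay 55 to 108 nt without a cluster.

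Cluster starts were spaced like the 5′ arms. From hsa-mir-17 to hsa-mir-18a the cluster starts were 139 nt apart in every list, and the 5′ arms are 138 nt apart in RefSeq. For the next 4 steps the series-wide clusters gave 148, 167, 136 and 116 nt and the RefSeq arms 148, 168, 135 and 117 nt. Distances were taken within each build, and no position was carried from one build to the other.

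The first base of a member's clusters moved by 0 or 1 nt between replicates for 5 of the 6, and by 8 nt for hsa-mir-92a-1. The last base moved by 0 or 1 nt for hsa-mir-18a, hsa-mir-19a and hsa-mir-20a and by 5 nt for hsa-mir-17. For the last 2 hairpins it moved much further, by 19 nt for hsa-mir-19b-1 and 29 nt for hsa-mir-92a-1. hsa-mir-19b-1 was covered over 62, 52 and 43 nt in replicates 1, 2 and 3, and hsa-mir-92a-1 over 61, 70 and 33 nt. In replicate 3, the list with the fewest clusters, both were shortest, and they ended earliest on the downstream side. That side holds the 3′ arms, hsa-miR-19b-3p and hsa-miR-92a-3p, which MIR19B2 and MIR92A2 also encode. The part of the shared sequence and of depth in this was not tested.

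hsa-mir-18a and hsa-mir-19a were each split into 2 clusters in replicates 2 and 3, and covered by 1 in replicate 1 and in the series-wide list. Of all hairpins with a cluster, 7.03%, 8.05% and 12.5% had more than 1 in replicates 1, 2 and 3. On hsa-mir-18a the upstream cluster (92003010 to 92003045 in both replicates) held most conversions: 70 of 80 in replicate 2, or 87.5% (95% exact binomial interval 78.2 to 93.8), and 55 of 69 in replicate 3, or 79.7% (68.3 to 88.4). On hsa-mir-19a the downstream cluster held most: 157 of 168 in replicate 2, or 93.5% (88.6 to 96.7), and 62 of 74 in replicate 3, or 83.8% (73.4 to 91.3). The leading side was thus 5′ on hsa-mir-18a and 3′ on hsa-mir-19a, the sides that also hold the usually loaded arms. Clusters were not placed on hairpin bases, and the upstream hsa-mir-18a cluster is 36 nt long against 23 nt for the arm. Whether the conversions lay within the arms was not tested. In distinct reads the leading side had 14 of 19 and 5 of 7 on hsa-mir-18a and 11 of 17 and 6 of 10 on hsa-mir-19a. Exact intervals of these 4 shares of distinct reads reach from 26.2% to 96.3%, so the side that led was not settled by distinct reads at this depth. The intervals of conversions take each conversion as separate although reads were repeated, so they are likely too narrow. Those of distinct reads cover counting error only.

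Each cluster carries 1 position named ccr, the abbreviation used in PAR-CLIP for a crosslink-centred region, which the files do not define. For 4 members this position was the same in all 4 lists, taking the leading cluster where there were 2. These were 92002895 on hsa-mir-17, 92003033 on hsa-mir-18a, 92003195 on hsa-mir-19a and 92003352 on hsa-mir-20a. Counted from the first base of the series-wide cluster they are bases 25, 24, 38 and 28. For hsa-mir-17, hsa-mir-18a and hsa-mir-20a the position thus lay 24 to 28 bases into the cluster, and the 5′ arms are 23 bases long. On hsa-mir-19b-1 it differed in every replicate (92003478, 92003493 and 92003488), and on hsa-mir-92a-1 it was 92003591 in replicate 1 and 92003605 in replicates 2 and 3.

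**Figure D4:**
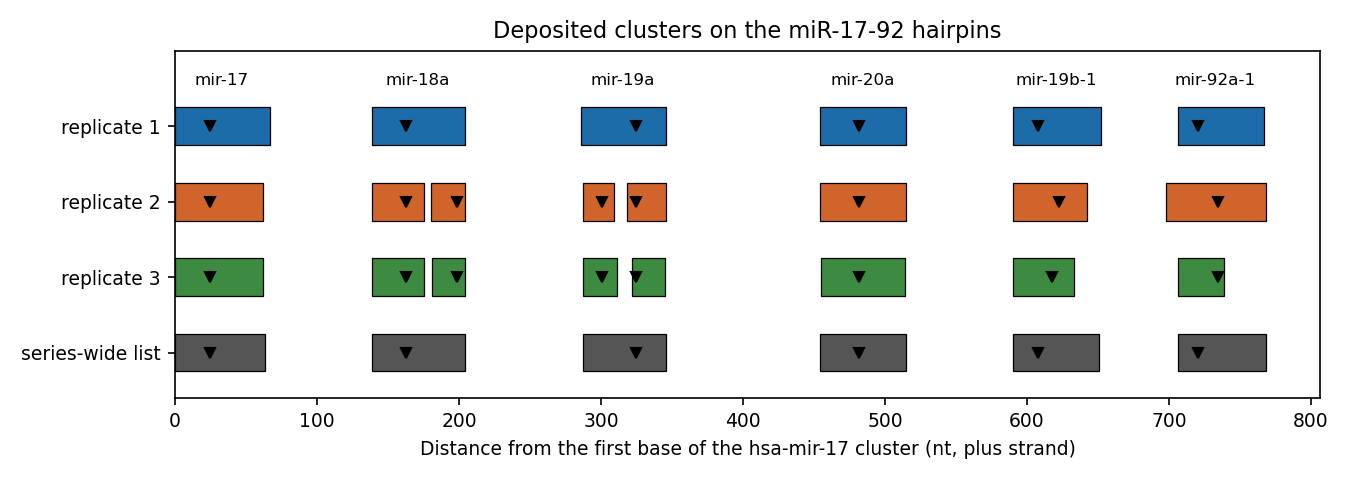
Deposited clusters on the transcript as bars, by distance in nt from the first base of the hsa-mir-17 cluster, with 1 line per list and a triangle at the position named ccr. hsa-mir-18a and hsa-mir-19a are each cut in 2 in replicates 2 and 3, the triangles of hsa-mir-17 and hsa-mir-20a stand in line in all 4 lists, and hsa-mir-92a-1 is covered over 33 nt in replicate 3.

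The number of positions with a conversion was lowest in replicate 3 for every member. They numbered 17, 11 and 6 on hsa-mir-17 in replicates 1, 2 and 3, and the stretch between its outer arm ends holds 16 uridines. On hsa-mir-19b-1 they numbered 16, 9 and 2 against 20 uridines, and on hsa-mir-92a-1 13, 13 and 5 against 22. On hsa-mir-18a they numbered 9, 7 and 3 against 19, and on hsa-mir-19a 11, 8 and 5 against 17. hsa-mir-18a had the fewest in replicates 1 and 2, and hsa-mir-19b-1 in replicate 3. hsa-mir-20a kept 16 positions in replicate 3, where the other members had 2 to 6.

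Mammalian genomes carry a pair of loci that arose as copies of this polycistron, miR-106b-25 within MCM7 and miR-106a-363 on the X chromosome. The comparison asks how conversions and distinct reads divided between the loci. The 6 members had 77924, 19522 and 7472 conversions in replicates 1, 2 and 3, or 37.5%, 14.9% and 9.11% of hairpin conversions. Their shares of hairpin distinct reads were 9.67%, 6.71% and 6.68%. The 3 hairpins of miR-106b-25 had 21685, 19292 and 7401. The loci were thus nearly level in replicates 2 and 3, at ratios of 1.01 and 1.01, and 3.59-fold apart in replicate 1. The mean log2 ratio was 0.63 ± 1.06 (SD, n = 3; exact sign-flip permutation p = 0.25, adjusted p = 0.281) and 0.02 without replicate 1, within the spread. By distinct reads miR-17-92 was the lower in 3 of 3 replicates, with 941, 588 and 166 against 1041, 1169 and 347 (mean log2 ratio -0.73 ± 0.510, SD, n = 3; exact sign-flip permutation p = 0.25, adjusted p = 0.45), so the direction turned with the measure.

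Conversions within miR-106b-25 were spread over its hairpins differently from those of miR-17-92. hsa-mir-106b, which has the same seed as hsa-mir-17 and hsa-mir-20a, held 62.4%, 79.4% and 68.4% of its locus and hsa-mir-93, of the same seed, 36.2%, 19.9% and 30.3%. By distinct reads hsa-mir-106b held 53.8%, 50.1% and 41.5% and hsa-mir-93 42.3%, 47.0% and 56.2%, so that hsa-mir-93 led in replicate 3. No replicate of hsa-mir-106b reached the share of hsa-mir-20a in its own locus, which was 91.2% to 93.0% by conversions and 58.1% to 63.3% by distinct reads; this contrast was picked after the values were seen and was not tested. hsa-mir-106b had 24.2, 26.1 and 35.2 conversions per distinct read, below hsa-mir-20a in each replicate. In distinct reads themselves hsa-mir-106b was above hsa-mir-20a in each replicate, with 560, 586 and 144 against 547, 372 and 101. hsa-mir-25, which shares its seed AUUGCAC with hsa-miR-92a-3p, had 288, 139 and 91 conversions, below hsa-mir-92a-1 with 683, 690 and 351.

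miR-106a-363 was close to empty. Its 6 hairpins summed to 44, 1 and 0 conversions in replicates 1, 2 and 3. They were hsa-mir-106a with 16, hsa-mir-19b-2 with 15 and hsa-mir-20b with 13 in replicate 1, and hsa-mir-20b with 1 in replicate 2. hsa-mir-18b, hsa-mir-92a-2 and hsa-mir-363 had no cluster in any list. The 6 members of miR-17-92 had 1771 times the conversions in replicate 1 and 19522 times in replicate 2. Their 95% exact intervals, 1319 to 2438 and 3503 to 771117, take repeated reads as separate and are therefore likely too narrow. In replicate 3 miR-17-92 had 7472 conversions and miR-106a-363 had no called cluster, so no ratio can be given. The lists hold called clusters, so reads below the authors' limit are not counted. How reads within the arms shared with hsa-mir-19b-1 and hsa-mir-92a-1 were placed is not stated. The values of hsa-mir-19b-2 and hsa-mir-92a-2, and with them these ratios, are uncertain to that extent. By distinct reads the ratios were far smaller, 44.8 in replicate 1 (941 against 21) and 118 in replicate 2 (588 against 5). The ratio of conversions in replicate 2 rests on 1 conversion in a cluster of 5 distinct reads. With 2 ratios the exact sign-flip permutation p was 0.5, the smallest that 2 allow (adjusted p = 0.5).

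The hairpins nearest to each member by their shares in the 3 replicates, measured as the sum of squared differences in log2 share over the 159 other hairpins with a cluster in all 3, were as follows. hsa-mir-17 was nearest to hsa-mir-374a (0.383), which had 2676, 311 and 100 conversions, and then to hsa-mir-16-1 (1.57). hsa-mir-18a was nearest to hsa-mir-31 (0.0589) and hsa-mir-33a (0.0664). Both hsa-mir-19a and hsa-mir-19b-1 were nearest to hsa-let-7b (0.444 and 0.407), with 975, 166 and 47 conversions, followed by hsa-mir-23b and hsa-mir-16-2. hsa-mir-92a-1 was nearest to hsa-mir-301a (0.400) and hsa-mir-196a-2 (0.513). hsa-mir-20a had no hairpin as near: its closest were hsa-mir-106b at 6.10 and hsa-mir-221 at 13.1.

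Among mRNAs of the miRNA pathway and of the circuit around the polycistron, some had an exonic cluster in all 3 replicates. Of 16 genes that make, export, cut, load or regulate miRNA precursors, 4 did, against 4.84% of all RefSeq protein-coding genes and 15.6% of those with an exonic cluster in any replicate. They were DICER1 itself, also carried as a transgene, with 2371, 1634 and 389 conversions, DROSHA with 458, 151 and 169, LIN28B, which blocks let-7 maturation, with 100, 20 and 28, and KHSRP, which binds some precursor loops, with 46, 14 and 33. Of 14 known targets and regulators of miR-17-92, 2 (14.3%) had one in all 3 replicates, beside the same 4.84% and 15.6%. These were E2F1, a classic target of the miR-17 seed that also activates the locus, with 217, 82 and 70 conversions, and E2F2 with 44, 13 and 10. E2F3 had 131 and 24 in replicates 1 and 2 and no cluster in replicate 3. MYC, an activator of the transcript, had none in any list. A cluster on an mRNA here is a called site with conversions, and without an untagged control DICER contact cannot be told from background. It carries no statement on which miRNA, if any, was present.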

How the data were processed

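Per the submitters' processing notes, Bowtie2 2.1.0 and the build hg19 were used. The caller is named in the files, but the sources used here give no version of it. The authors deposited, for each cluster, the count of T-to-C conversions, not scaled to depth, and attribute text with reads, distinct reads, positions with a conversion, length and annotation of both strands. Per the file attributes, the estimated FDR is 5% throughout. A library-support attribute of the clusters reached at most 2 in the replicates, and whether it counts libraries or sequencing runs is not known here. The series-wide values are not sums over the replicates.

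For each hairpin, values were summed over the clusters naming it in sense; no cluster named more than 1. Within-replicate ratios went through an exact sign-flip permutation test, two-sided, with p-values adjusted by Benjamini-Hochberg over 9 tests per measure. The test of a difference in replicate counts over the 6 members gave chi-square values of 875, 948 and 64.6 with 5 degrees of freedom for conversions, so no replicate was a repeat deposit within counting error; for distinct reads of replicates 2 and 3 it was 7.86 (p = 0.164), and 330 with 169 degrees of freedom over all shared hairpins. mRNA clusters had to be annotated as exon of a coding transcript and name no hairpin. RefSeq names (GRCh38.p14) matched 392 of 396 hairpins and all 30 listed mRNAs. Named genes were the members, their paralogs and, of each mRNA list, up to 4 with a cluster in all replicates, and 2 nearest hairpins per member; E2F3 and MYC were named after their values were seen, and 1 listed gene is not reported here. The members and lists were chosen with earlier results of these data known. Alternatives used distinct reads, all reads, clusters naming 1 hairpin, at least 3 distinct reads, another denominator, the series-wide list and leaving out each replicate. Sums and ratios were tested on simulated data (100% of sums over 313 hairpins of replicate 1 recovered). Python 3.11.15, scipy 1.17.1 and numpy 2.4.6 were used.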

Additional observations from a re-analysis of the deposited data

How the results depend on the processing

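Counting all reads, requiring at least 3 distinct reads, using the series-wide list or leaving out any 1 replicate turned the sign of no mean ratio. Nor did these settings move a mean share by more than its SD. That limit was wide, as hsa-mir-17 averaged 0.599% with an SD of 0.617. Taking only clusters that name 1 hairpin changed nothing, because no cluster named more. By all reads, single replicates did turn: miR-17-92 was below miR-106b-25 in replicates 2 and 3 (20212 against 20566 and 7610 against 7982 reads; exact permutation p = 1), hsa-mir-19b-1 was above hsa-mir-92a-1 in replicate 1 (795 against 741), and 11 of 15 pairs kept 1 direction, against 12 by conversions. Distinct reads turned 2 ratios, hsa-mir-19a to hsa-mir-19b-1 to -0.28 and miR-17-92 to miR-106b-25 to -0.73, and moved the shares of hsa-mir-17 to 1.25%, hsa-mir-18a to 0.313%, hsa-mir-20a to 4.64%, hsa-mir-19b-1 to 0.436% and hsa-mir-92a-1 to 0.689%; the cause was not tested. As a share of all conversions of a list, a larger denominator, the means were 0.0147% for hsa-mir-18a, 2.80% for hsa-mir-20a, 0.0235% for hsa-mir-19b-1, 0.0588% for hsa-mir-92a-1 and 3.02% for all 6. Without replicate 1 the mean share of hsa-mir-19a went from 0.243% to 0.109%, hsa-mir-19b-1 from 0.158% to 0.0833% and all 6 from 20.5% to 12.0%. No paired analysis was possible because there is 1 group. With 6 to 22 distinct reads on 5 of the 6 hairpins in replicate 3, their values there are the least precise.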
